A study of Mus musculus with 15 samples.

Results

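The genes described here mark hepatic stellate cells or encode the fibrillar collagens and related matrix proteins of the liver. They are the 9 genes Lrat, Des, Dcn, Col1a1, Col1a2, Col3a1, Pdgfrb, Reln and Timp1, taken by name from a table of 21702 genes. RNA was sequenced from the whole livers of 15 adult female wild-type C57BL/6 mice (the C57BL/6N line, by the study's methods) in 5 groups of 3. The groups were NP, 8 dpc and 16 dpc mice given AAV8-null and 8 dpc and 16 dpc mice given AAV8-p21, where NP is non-pregnant and dpc is days post-coitum. All mice received a virus by tail vein before mating or, for NP, without mating. AAV8-p21 carries the mouse p21 cDNA (Cdkn1a, an inhibitor of cyclin-dependent kinases) behind the TBG promoter, which is active in hepatocytes, and AAV8-null carries the promoter without a cDNA. There was no NP group with AAV8-p21, and nothing in the labels ties mice of different groups to each other.

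Hepatic stellate cells lie between the sinusoidal endothelium and the hepatocytes and store vitamin A as retinyl esters in lipid droplets. In a healthy liver they are quiescent. After injury they can lose these droplets and become myofibroblasts, which secrete fibrillar collagen and inhibitors of matrix breakdown and are the main source of scar tissue. Lrat, Reln and Des mark the quiescent or general stellate cell, whereas Col1a1, Col1a2, Col3a1 and Timp1 are low at rest and are known to be induced on activation. In RNA from whole liver, fewer cells of a type and less RNA per cell cannot be told apart.

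Total counts per library lay between 12280709 and 17615185. Cdkn1a had 347 to 1664 CPM in the AAV8-p21 livers and 3.29 to 127 CPM in the AAV8-null livers, without overlap, in accord with the labels. CPM are counts divided by the TMM-scaled library size, in units of 1e+06 counts. Albumin took 20.5% to 27.8% of all counts at 16 dpc and 7.90% to 12.9% in the other groups, and TMM factors were 0.682 to 0.839 and 1.10 to 1.25, so values at 16 dpc lean on that scaling. Some libraries, 1 each in 4 groups, stood apart from others of their group. Among the 8 dpc AAV8-null livers, mouse 3 had 4.11 CPM of the proliferation marker Mki67 where mice 1 and 2 had 43.8 and 45.4 CPM. Across genes, the log2 values of NP mouse 1 had a Pearson r of 0.944 and 0.942 with NP mice 2 and 3, which had 0.984 with each other. Mouse c of the 16 dpc AAV8-p21 group had 0.945 and 0.955 with mice a and b, which had 0.978 with each other. Mouse 3 of the 8 dpc AAV8-p21 group had 0.957 and 0.963 with mice 1 and 2, which had 0.979 with each other. The 3 AAV8-null livers of 16 dpc had 0.951, 0.958 and 0.956 with each other, so this group held no pair as close as those of the other groups. Values without one of the livers that stood apart are given where they differ most from those with all livers. The AAV8-p21 mice at 16 dpc carry letters because their numbers in the table and in the labels do not match.

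The stellate cell signature was present in every liver. All 10 genes of a stellate marker list (Lrat, Reln, Des, Dcn, Pdgfrb, Colec11, Ecm1, Rgs5, Cygb, Hand2) had counts in all 15 libraries, and their summed level lay between 193 and 494 CPM. Markers of other mesenchymal cells had lower summed levels. A list of 22 portal fibroblast, smooth muscle and mesothelial genes, which shares Des with the stellate list, summed to 12.02 to 26.8 CPM, with between 0 and 6 of its genes at 0 counts in a library. Neither sum is scaled by exon length, and Dcn (61.0 to 185 CPM) and Ecm1 (64.1 to 174 CPM) make up much of the stellate sum. The sums therefore do not compare the amounts of these cell types. Acta2, the actin of smooth muscle and of myofibroblasts, had 0.156 to 2.38 CPM, and Tagln, another contractile gene of these cells, had 0.884 to 4.26 CPM.

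The promoters of Lrat and Col3a1 are shown, Lrat because it fell in late pregnancy and Col3a1 because it was the most abundant fibrillar collagen chain per exon length. Each is the 250 bases before the RefSeq start on GRCm38.p6, written 5′ to 3′ on the strand of the gene. Capitals mark matches to 4 motifs searched on both strands. They were the TATA box core TATAA, the CAAT box core CCAAT, the nuclear receptor element AGGTCA and the GC box core CCGCCC. The Lrat window is chr3:82903975-82904224 on the minus strand, and the Col3a1 window is chr1:45311288-45311537 on the plus strand.
Lrat: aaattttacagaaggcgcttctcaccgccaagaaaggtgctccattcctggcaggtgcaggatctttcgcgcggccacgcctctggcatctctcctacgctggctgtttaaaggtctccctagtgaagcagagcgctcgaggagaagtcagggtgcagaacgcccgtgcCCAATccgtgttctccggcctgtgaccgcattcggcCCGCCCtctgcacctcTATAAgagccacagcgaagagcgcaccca
Col3a1: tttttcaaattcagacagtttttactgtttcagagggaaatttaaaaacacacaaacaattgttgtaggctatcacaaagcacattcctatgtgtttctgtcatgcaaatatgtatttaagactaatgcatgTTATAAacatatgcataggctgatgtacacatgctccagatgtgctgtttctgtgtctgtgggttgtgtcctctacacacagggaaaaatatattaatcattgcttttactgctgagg
The Lrat window held the GC box core 45, the CAAT box core 81 and the TATA box core 29 bases before the start, and 59.2% of its bases were G or C. The Col3a1 window held the TATA box core on both strands, overlapping and beginning 117 and 118 bases before the start, and 35.2% of its bases were G or C. Over 32851 RefSeq promoters, the TATA box core was found in 22.8% of the windows, the CAAT box core in 33.8%, the GC box core in 32.7% and the nuclear receptor element in 14%. The last was in neither window. Of the other members, Des, Reln, Col1a2 and Timp1 also had an entry, and their windows held the GC box core on one strand or the other, in 6 places for Reln, while those of Col1a2 and Timp1 also held the CAAT box core. Dcn and Col1a1 had no entry, and Pdgfrb was not included.

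The members differed widely in level. Levels were compared between genes per kilobase of exon, where every base in an exon of any annotated transcript was counted. This length can exceed that of the main mRNA of a gene, which lowers its level, and the transcripts in use were not tested. On that scale Dcn, the small leucine-rich proteoglycan decorin, was the highest in every liver at 21.4 ± 5.98 CPM per kb (SD over all 15 livers). Lrat, which esterifies retinol for storage, followed at 2.09 ± 0.982 CPM per kb. Col3a1, the chain of type III collagen, had 1.52 ± 0.895 CPM per kb. Reln, a large secreted glycoprotein that marks stellate cells in liver, had 1.33 ± 0.509 CPM per kb. The order of these last members was not fixed, since Lrat was above Col3a1 in 10 of 15 livers and Col3a1 above Reln in 9. Pdgfrb (0.926 ± 0.220 CPM per kb), the receptor for PDGF-B, lay above Des (0.753 ± 0.226 CPM per kb), the intermediate filament desmin, in 13 of 15 livers. Col1a2 (0.590 ± 0.181 CPM per kb) was above Col1a1 (0.442 ± 0.278 CPM per kb) in 13 livers. Timp1, the tissue inhibitor of metalloproteinases most strongly tied to fibrosis, was last at 0.168 ± 0.132 CPM per kb.

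**Figure D1:**
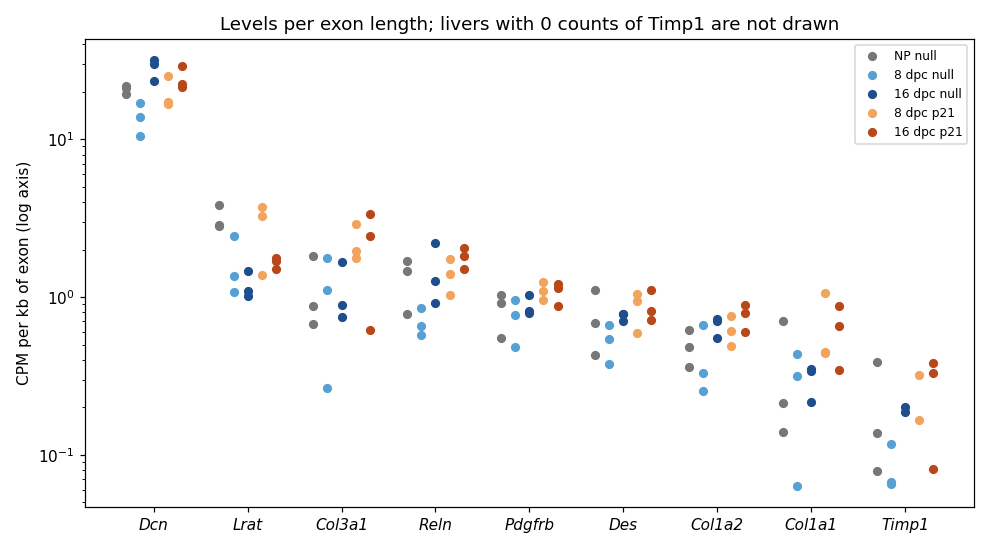
Levels of the 9 genes in CPM per kb of exon on a log axis, 1 point per liver, coloured by group, in the order of their mean. Dcn lies above all other genes in every liver, and the 2 livers with 0 counts of Timp1 are not drawn.

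Timp1 was near the limit of detection. Its raw counts were 5, 2 and 1 in the NP livers, 1, 1 and 2 at 8 dpc and 2, 2 and 0 at 16 dpc with AAV8-null. They were 3, 5 and 0 at 8 dpc and 4, 1 and 4 at 16 dpc with AAV8-p21. The gene did not pass the filter on low counts, so it was not tested, and with 33 counts over all libraries no difference between groups was detectable at this depth. The gene lies at chrX:20870166-20874735 inside Syn1 on the opposite strand, and counts of these genes are separate only if the counting used strand. The other 8 members passed the filter and were tested with 12172 genes in all.

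**Figure D2:**
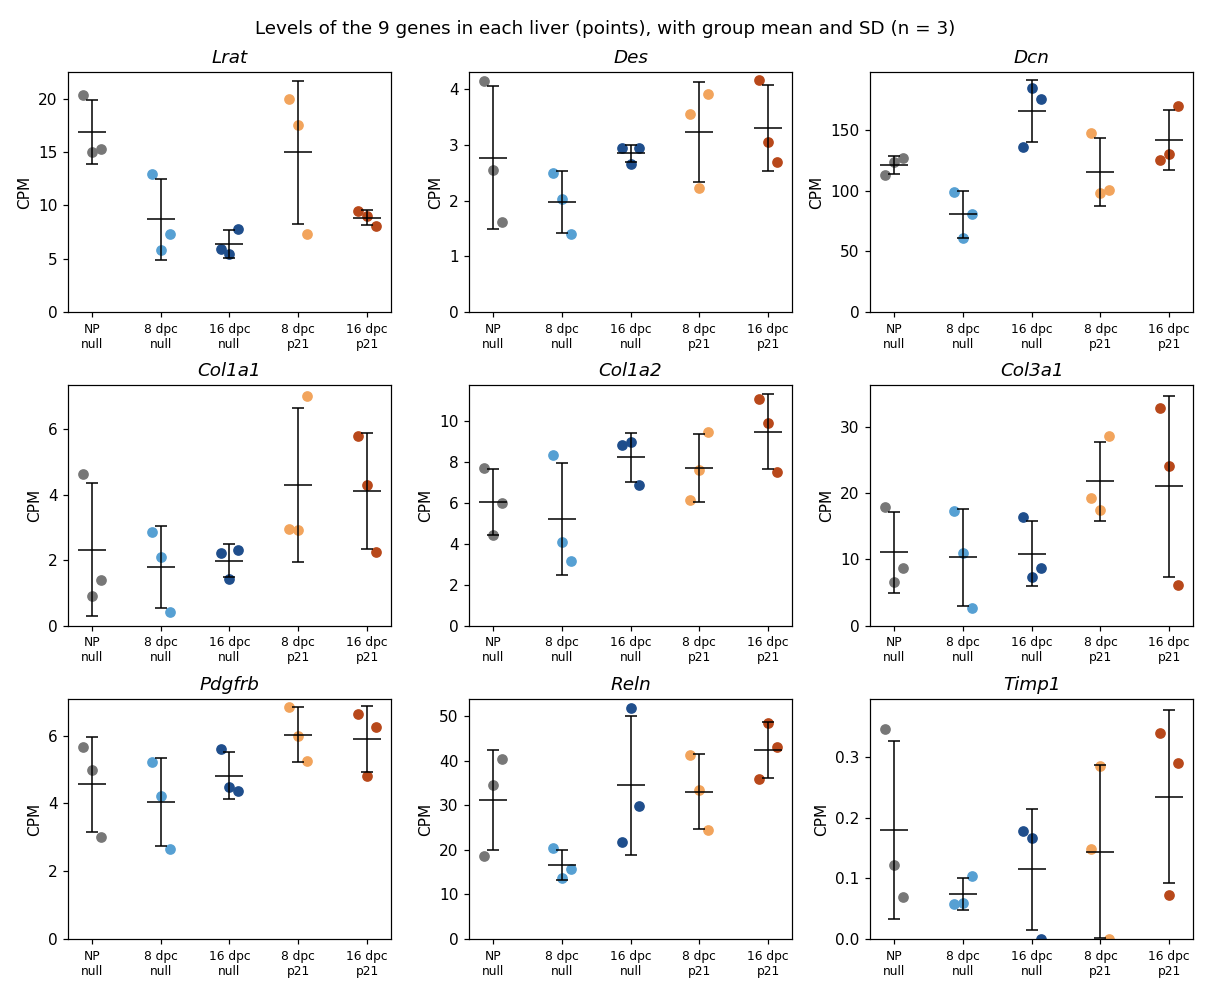
TMM-scaled CPM of each gene in each liver (points), with the mean and SD of each group of 3 mice (bars), on axes that start at 0. Lrat is high in the 3 NP livers and low in the 3 AAV8-null livers of 16 dpc, and Dcn is lowest at 8 dpc with AAV8-null.

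Lrat (chr3:82892579-82903973, minus strand, GRCm38) fell in late pregnancy in mice with AAV8-null. It had 20.4, 15.05 and 15.3 CPM in the NP livers and 5.88, 5.42 and 7.83 CPM in the 16 dpc livers. All 3 late-pregnancy values were below all 3 NP values. The means were 16.9 ± 2.99 and 6.38 ± 1.28 CPM (SD, n = 3), a log2 fold change of -1.41 with an SE of 0.35, and the edgeR adjusted p was 0.0279. At 8 dpc with AAV8-null, Lrat had 12.98, 5.78 and 7.28 CPM, again below every NP liver. That difference from NP (log2 fold change -0.96, 95% interval -1.69 to -0.23) did not pass the adjustment in edgeR, with an adjusted p of 0.490. The call at 16 dpc was sensitive to single mice. It was kept without 16 dpc mouse 3 (adjusted p = 0.0492) and lost in edgeR without NP mouse 1 (0.0709), NP mouse 2 (0.0592), NP mouse 3 (0.0595), 16 dpc mouse 1 (0.0782) or 16 dpc mouse 2 (0.106), while the log2 fold change stayed between -1.58 and -1.25.

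Lrat was the only member called between NP and 16 dpc, 1 of 8 tested, where 6.52% of all genes were called (3.71% higher and 2.82% lower at 16 dpc). Dcn also separated, with 113, 124 and 127 CPM in NP and 137, 185 and 176 CPM at 16 dpc. All its 16 dpc values were above NP, but the log2 fold change of 0.45 (SE 0.22) had an edgeR adjusted p of 0.258. Lrat and Dcn were the 2 of 8 members whose groups did not overlap, and 24.6% of all genes did not. The remaining 6 members had log2 fold changes between -0.22 and 0.45. The 95% intervals were wide for the collagens, from -1.66 to 1.23 for Col1a1 and from -1.38 to 1.32 for Col3a1, and narrower for Pdgfrb, from -0.53 to 0.69. The median over the 8 members was 0.06 with 5 above 0, and that of all tested genes was -0.03. Without NP mouse 1 the median was 0.43 with 6 of 8 above 0, and with scaling by the library total it was -0.62 with 0 of 8 above 0, where all genes had a median of -0.70.

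Dcn (chr10:97479609-97518143, plus strand) rose between mid- and late pregnancy in mice with AAV8-null. It had 99.4, 61.0 and 81.0 CPM at 8 dpc, and all 3 values at 16 dpc given above were higher. The means were 80.5 ± 19.2 and 166 ± 25.8 CPM (SD, n = 3), a log2 fold change of 1.04 with an SE of 0.22 and an edgeR adjusted p of 0.0144. It was the 1 member of 8 called, where 6.87% of all genes were called (3.16% higher and 3.71% lower at 16 dpc). Without 8 dpc mouse 3 the log2 fold change was 1.05 and the adjusted p 0.0242. The call was lost without 8 dpc mouse 2 (log2 fold change 0.88, adjusted p = 0.0790) or 16 dpc mouse 2 (0.96, adjusted p = 0.0581), and also when counts were scaled by the library total alone (0.34, adjusted p = 0.247). Under that scaling the median of all genes was -0.70 in this comparison, and Dcn lay above it.

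Reln (chr5:21884454-22344702, minus strand) showed the same order of groups as Dcn but more spread. It had 18.6, 34.5 and 40.3 CPM in NP, 20.3, 13.7 and 15.7 CPM at 8 dpc and 21.7, 51.9 and 29.8 CPM at 16 dpc with AAV8-null. All 16 dpc values were above all 8 dpc values. The log2 fold change of 1.06 (SE 0.33) had an edgeR adjusted p of 0.0692, and Reln joined Dcn among the called genes in the DESeq2 Wald test (adjusted p = 0.0266 on all 15 libraries). It also passed in edgeR without 16 dpc mouse 1 (log2 fold change 1.30, adjusted p = 0.0360), the liver with the lowest Reln of its group. Des, with 2.503, 2.02 and 1.40 CPM at 8 dpc and 2.94, 2.67 and 2.94 CPM at 16 dpc, also had no overlap, with a log2 fold change of 0.53 and an edgeR adjusted p of 0.414. These 3 of 8 members compare with 25.4% of all genes whose groups did not overlap. The other members, Lrat included, had log2 fold changes from -0.44 to 0.66, and the median over the 8 was 0.39, with 7 above 0, against 0.00 over all genes. Without 8 dpc mouse 3 the median was 0.18 with 5 of 8 above 0, and with scaling by the library total it was -0.31 with 2 of 8 above 0.

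Between NP and 8 dpc no member was called in edgeR, nor was any gene, so 0% of all genes were called. All 8 members had a log2 fold change below 0 (median -0.43, all genes -0.01). Unadjusted p-values from edgeR were under 0.05 for 3 of them, Lrat (-0.96), Reln (-0.91) and Dcn (-0.59), against 6.6% of all genes. Groups did not overlap for Lrat and Dcn, 2 of 8, against 10.2% of all genes. DESeq2 on all 15 libraries called 0 of the members and 62 genes in all, whereas limma voom with sample weights called Dcn (adjusted p = 0.0328), Reln (0.00816) and 1850 genes in all. The direction over the members depended on the library that stood apart, since without 8 dpc mouse 3 only 4 of 8 members were below 0 and the median was -0.13, and without NP mouse 1 it was 5 of 8, with a median of -0.04. No member was called without either, with 92 and 2 genes called in all. The 8 dpc AAV8-null livers serve in this comparison, in the one with 16 dpc and in the one with AAV8-p21, so the same 3 mice enter each of these differences.

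None of the fibrillar collagen genes was called in edgeR, DESeq2 or limma voom between stages of pregnancy with AAV8-null. Col3a1 (chr1:45311538-45349706) had 17.9, 6.58 and 8.60 CPM in NP, 17.3, 10.9 and 2.60 CPM at 8 dpc and 16.4, 7.33 and 8.72 CPM at 16 dpc with AAV8-null. In each of these groups mouse 1 was the highest, and the groups overlapped. Col1a1 (chr11:94936224-94953042) had 4.64, 0.914 and 1.40 CPM in NP, 2.85, 2.08 and 0.416 CPM at 8 dpc and 2.23, 1.42 and 2.31 CPM at 16 dpc. NP mouse 1 had the highest Col1a1 of the AAV8-null livers and 8 dpc mouse 3 the lowest, with 67 and 8 counts. Col1a2 (chr6:4504814-4541544), whose product pairs with that of Col1a1 in type I collagen, had 7.69, 4.45 and 6.01 CPM in NP, 8.32, 4.11 and 3.17 CPM at 8 dpc and 8.82, 8.998 and 6.85 CPM at 16 dpc. Its log2 fold change from 8 to 16 dpc was 0.66 (95% interval -0.04 to 1.36, edgeR adjusted p = 0.248). Pdgfrb (chr18:61045150-61085061), with 5.68, 5.00 and 3.01 CPM in NP, 5.24, 4.23 and 2.65 CPM at 8 dpc and 5.62, 4.50 and 4.36 CPM at 16 dpc, overlapped in all 3 groups.

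AAV8-p21 was compared with AAV8-null at the same stage to ask what inhibiting the hepatocyte cell cycle did to these genes. At 8 dpc no member was called in edgeR, where 3 genes in all (0.0246%) were. All 8 members nevertheless had a log2 fold change above 0, with a median of 0.75 and a range from 0.52 to 1.26, where 49.6% of all genes were above 0 and their median was 0.00. Unadjusted edgeR p-values were under 0.05 for Reln, Dcn and Lrat, 3 of 8 members, against 5.18% of all genes. The groups did not overlap for Reln, Col1a1, Col3a1 and Pdgfrb, 4 of 8, against 10% of all genes. The members are not independent of each other, since they share livers and, as described below, vary together. Without the AAV8-null mouse 3 at 8 dpc all 8 were still above 0, with a median of 0.58 and none called, while 38 genes in all were called. Without the AAV8-p21 mouse 3 all 8 were above 0 as well, with a median of 0.70 and none called, and the log2 fold change of Lrat was 1.11 (adjusted p = 0.377). DESeq2 and limma voom on all 15 libraries also called 0 members. Markers of several other cell types lay mostly above 0 in this comparison too, 11 of 14 tested portal fibroblast, smooth muscle and mesothelial genes (median 0.45), 5 of 6 cholangiocyte genes (0.65), 17 of 20 endothelial genes (0.28), 12 of 14 Kupffer cell and macrophage genes (0.20) and 5 of 6 erythroid genes (0.43). Fewer lay above 0 among markers of lymphocytes and neutrophils (4 of 10, median -0.28), of hepatocytes (5 of 13, median -0.09) and of cycling cells (1 of 15, median -2.22), and none of the markers was called. The cholangiocyte markers summed to 37.7 to 54.6 CPM with AAV8-p21 and 18.5 to 27.2 CPM with AAV8-null, without overlap. Their part in the values of the members was not tested.

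The single values at 8 dpc show where the difference lay. Reln had 41.2, 33.3 and 24.4 CPM with AAV8-p21 against 20.3, 13.7 and 15.7 CPM with AAV8-null, a log2 fold change of 0.996 (95% interval 0.29 to 1.70, edgeR adjusted p = 0.654). Col3a1 had 19.2, 17.4 and 28.5 CPM with AAV8-p21 (log2 fold change 1.08, interval -0.25 to 2.42). The lowest of these values was next to the highest of AAV8-null, 17.3 CPM, so that the separation of the groups was narrow. Col1a1 had 2.96, 2.91 and 7.00 CPM with AAV8-p21, with the first values again just above the highest AAV8-null value of 2.85 CPM. Pdgfrb had 6.86, 5.99 and 5.25 CPM with AAV8-p21 against at most 5.24 CPM with AAV8-null. Lrat had 19.99, 17.6 and 7.35 CPM with AAV8-p21, and mouse 3 of that group lay within the AAV8-null range. Dcn had 148, 98.3 and 101 CPM, Des had 3.55, 2.23 and 3.92 CPM and Col1a2 had 6.12, 7.59 and 9.46 CPM, each with overlap.

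At 16 dpc the median log2 fold change of the 8 members between the viruses was 0.29 with 7 above 0, and the interaction with stage was called for no member (adjusted p = 0.999971 for each, edgeR). No member was called between the viruses in edgeR, where 9 genes (0.0739%) were called and none of the members had an unadjusted p under 0.05, against 9.77% of all genes. Without mouse c the number of called genes was 35, and without NP mouse 1 it was 27, in both cases with 0 members. DESeq2 and limma voom on all 15 libraries called 0 members too. Col1a1 had 5.79, 4.29 and 2.26 CPM with AAV8-p21 (log2 fold change 1.04, SE 0.66, adjusted p = 0.624). Col3a1 had 32.8, 24.1 and 6.04 CPM (0.95, SE 0.63, adjusted p = 0.644). For both genes mouse c had a value within or below the AAV8-null range, while mice a and b were above it. Lrat had 9.46, 9.01 and 8.08 CPM with AAV8-p21, all above the highest AAV8-null value of 7.83 CPM, and was the 1 member of 8 whose groups did not overlap (13.7% of all genes). Its log2 fold change was 0.47 (interval -0.28 to 1.23, adjusted p = 0.692), and the AAV8-p21 values were all below the lowest NP value of 15.05 CPM. Dcn was the member with a log2 fold change below 0, at -0.22, with 126, 130 and 170 CPM. Reln had 35.8, 48.3 and 43.1 CPM, Col1a2 11.1, 9.89 and 7.5002 CPM, Pdgfrb 6.64, 4.80 and 6.26 CPM and Des 4.17, 3.05 and 2.69 CPM, and each overlapped with AAV8-null. Of the cholangiocyte markers 5 of 6 were above 0 (median 1.07), with sums of 20.2 to 44.3 CPM with AAV8-p21 and 8.66 to 17.6 CPM with AAV8-null that did not overlap, and of the portal fibroblast, smooth muscle and mesothelial markers 11 of 14 (median 0.26). The other lists of markers had medians from -0.23 for cycling cells to 0.26 for erythroid cells, and no marker was called. Their part in the values of the members was not tested.

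**Figure D3:**
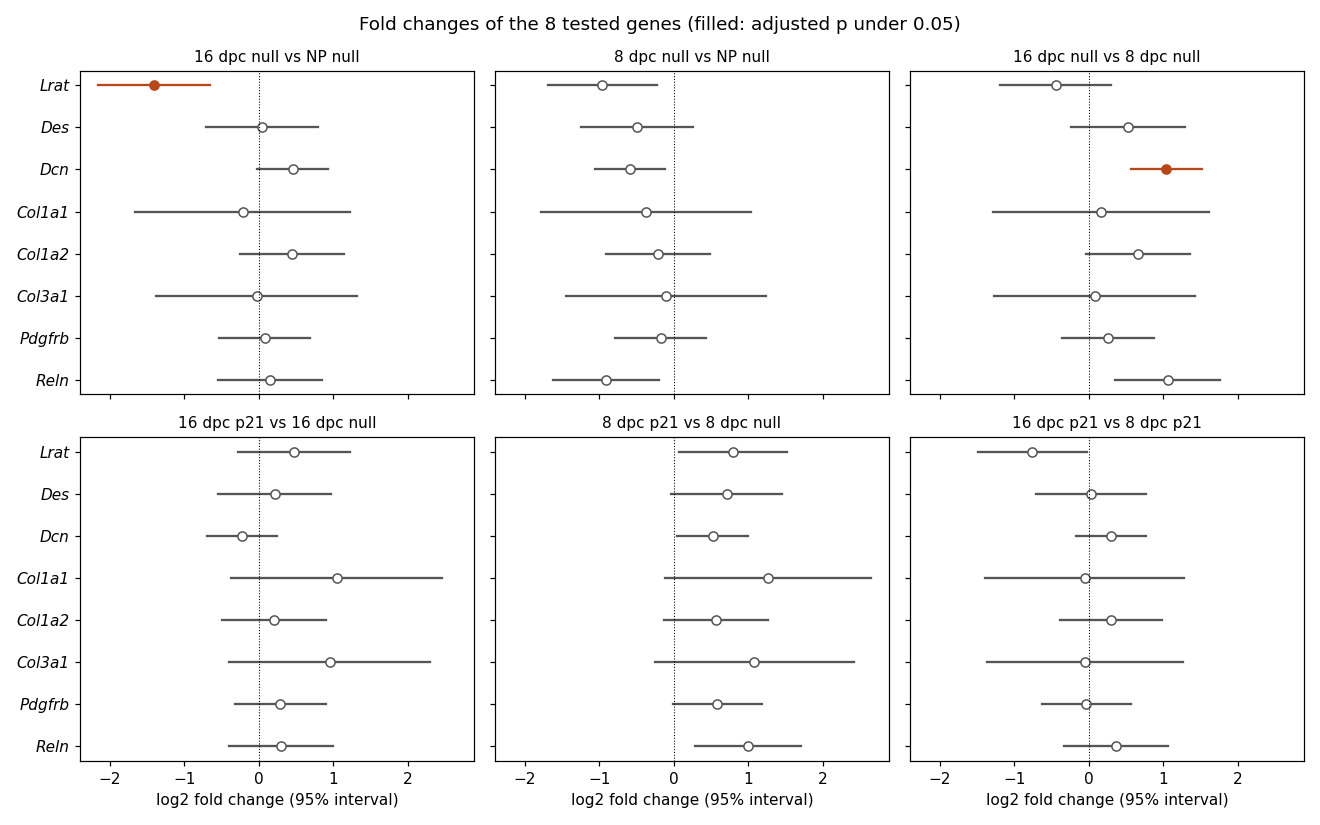
Log2 fold changes of the 8 tested genes with their 95% intervals from edgeR, 1 panel per comparison, where filled symbols have an adjusted p under 0.05. Only Lrat from NP to 16 dpc (-1.41) and Dcn from 8 to 16 dpc (1.04), both with AAV8-null, are filled, and all 8 genes lie above 0 in the comparison of the viruses at 8 dpc.

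In mice with AAV8-p21 no member was called between 8 and 16 dpc in edgeR, where 3.32% of all genes were called (2.09% higher and 1.23% lower at 16 dpc). No member separated the groups, where 22.9% of all genes did. Lrat had the lowest unadjusted p, 0.0423, with a log2 fold change of -0.76 (interval -1.50 to -0.03, adjusted p = 0.281), and it passed in limma voom (adjusted p = 0.0453) and with scaling by the library total (0.0153). That scaling called 4317 of 12172 genes here, against 404, with a median of -0.59 over all genes. Log2 fold changes of the other 7 lay between -0.06 and 0.36, with 4 of the 8 members above 0, and 6 of 8 were above 0 without mouse c of 16 dpc or without mouse 3 of 8 dpc. DESeq2 on all 15 libraries called 0 members. Whether the virus effect differed between the stages was tested as an interaction, and 0% of all genes and none of the members passed in edgeR, DESeq2 or limma voom. The 8 interaction terms were below 0 (median -0.34, all genes 0.00), but 2 of 8 were above 0 without the AAV8-null mouse 3 of 8 dpc (median -0.15), without mouse c of 16 dpc (-0.30) or without the AAV8-p21 mouse 3 of 8 dpc (-0.37). The one with an unadjusted edgeR p under 0.05 was that of Dcn (-0.75), against 3.09% of all genes.

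The wider gene lists place the members among their neighbours. Their counts include the members themselves. Of 29 tested genes of stellate identity, 3 rose and none fell from 8 to 16 dpc with AAV8-null, where 3.16% of all genes rose and 3.71% fell. A log2 fold change above 0 was found for 26, with a median of 0.64 against 0.00 over all genes. Besides Dcn the called genes were Adamtsl2, a secreted glycoprotein of the extracellular matrix (1.94, SE 0.50, adjusted p = 0.0335), and Cygb, the stellate cell globin (0.95, SE 0.25, adjusted p = 0.0354). Without 8 dpc mouse 3 the count was 4, but Cygb (adjusted p = 0.0665) and Adamtsl2 (0.0713) were not among them. Without NP mouse 1 it was 8 and without AAV8-p21 mouse c of 16 dpc it was 5. From NP to 8 dpc, 2 of 29 were above 0 (median -0.52) and none was called, and with AAV8-p21 against AAV8-null at 8 dpc all 29 were above 0 (median 0.58), 28 of 29 without the AAV8-p21 mouse 3, and none was called. Scaled by the library total, the median from 8 to 16 dpc was -0.06, with all genes at -0.70, and 1 gene rose and 4 fell. From NP to 16 dpc Lrat and Nes, the intermediate filament nestin (-2.44, SE 0.64, adjusted p = 0.0341), fell, where 2.82% of all genes did. In that comparison 21 of 29 were above 0, and Nes was not called without NP mouse 1 (adjusted p = 0.0823).

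The endothelial markers had the same sign as most stellate genes between NP and 8 dpc and between 8 and 16 dpc, but not between NP and 16 dpc. The 20 liver endothelial markers all lay above 0 from 8 to 16 dpc (median 0.74), with Pecam1 and Clec4g called, where 3.16% of all genes rose. All lay below 0 from NP to 8 dpc (median -0.84), with none called. From NP to 16 dpc 4 of 20 were above 0 (median -0.24). Scaled by the library total, Pecam1 (0.43, adjusted p = 0.232) and Clec4g (0.10, adjusted p = 0.685) were not called. Their summed level was 280 to 395 CPM at 8 dpc with AAV8-null, 386 to 722 CPM in NP and 473 to 633 CPM at 16 dpc with AAV8-null. The summed level of the 10 stellate markers was 193 to 293 CPM, 346 to 411 CPM and 362 to 494 CPM in the same groups. The 15 markers of cycling cells summed to 181 and 186 CPM in mice 1 and 2 at 8 dpc with AAV8-null, to 37.5 CPM in mouse 3 and to at most 62.6 CPM in any other liver. The part of these cell types in the values of Dcn and Reln was not tested.

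Among collagen chains, 2 of 19 tested genes rose from NP to 16 dpc with AAV8-null, where 3.71% of all genes rose (3.16% from 8 to 16 dpc). Both encode type IV collagen of basement membranes. Col4a1 had 20.9 ± 2.06 CPM in NP, 21.01 ± 4.69 CPM at 8 dpc and 61.1 ± 11.4 CPM at 16 dpc (log2 fold change from NP 1.55, SE 0.22, adjusted p = 0.000726). Col4a2 had 14.97 ± 1.33 CPM in NP, 12.4 ± 2.504 CPM at 8 dpc and 23.9 ± 0.724 CPM at 16 dpc (0.67, SE 0.18, adjusted p = 0.0374). With scaling by the library total Col4a1 was still called (0.87, adjusted p = 0.00673), and the log2 fold change of Col4a2 was -0.00. The same genes were called from 8 to 16 dpc, where Col4a1 had a log2 fold change of 1.54 and Col4a2 of 0.94, and Col4a2 was again not called with scaling by the library total (0.23, adjusted p = 0.302). The median over the 19 chains was 0.15 from NP, with all genes at -0.03. Col4a1 with AAV8-p21 had 25.01 ± 3.66 CPM at 8 dpc and 40.5 ± 8.58 CPM at 16 dpc (SD, n = 3), and neither chain was called there.

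None of 23 tested genes for collagen processing and crosslinking was called in edgeR in any comparison. From 8 to 16 dpc with AAV8-null 19 of them were above 0 with a median of 0.28, and with AAV8-p21 at 8 dpc 18 were above 0 with a median of 0.51. Of 28 small proteoglycans and other matrix genes, Nid1, the basement membrane linker nidogen, rose from NP to 16 dpc, where 3.71% of all genes did (13.2 ± 4.11 to 30.3 ± 4.51 CPM, log2 fold change 1.20, SE 0.29, adjusted p = 0.0233). It was not called without NP mouse 1 (0.97, adjusted p = 0.0662). Nid1 rose also from 8 to 16 dpc with either virus, by 1.56 with AAV8-null and 1.38 with AAV8-p21 on the log2 scale, the latter not without the AAV8-p21 mouse 3 of 8 dpc (adjusted p = 0.0516). With scaling by the library total Nid1 was called from 8 to 16 dpc with AAV8-null (0.86, adjusted p = 0.0329), but not with AAV8-p21 (0.80, adjusted p = 0.0572) or from NP to 16 dpc (0.53, adjusted p = 0.158). Bgn, the proteoglycan biglycan and a close relative of Dcn, rose from 8 to 16 dpc with AAV8-null (52.2 ± 16.03 to 95.2 ± 15.6 CPM, 0.87, SE 0.22, adjusted p = 0.0284), but not without 8 dpc mouse 3 (0.67, adjusted p = 0.0606) or with scaling by the library total (0.15, adjusted p = 0.513).

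Of 18 tested genes of activated stellate cells, 9 were above 0 from NP to 16 dpc (median 0.05), 4 from NP to 8 dpc (median -0.32) and 14 from 8 to 16 dpc with AAV8-null (median 0.35). From NP to 16 dpc Tpm2, a tropomyosin of contractile cells, was the 1 called of 18, where 6.52% of all genes were called (11.01 ± 6.30 to 42.0 ± 17.2 CPM, log2 fold change 1.93, SE 0.45, adjusted p = 0.0192). From 8 to 16 dpc with AAV8-null, where 3.16% of all genes rose and 3.71% fell, Tpm2 and Pdgfra rose. Ccn1, a matrix-associated signalling protein, fell (-1.37, SE 0.35, adjusted p = 0.0320). With AAV8-p21 Tpm2 also rose over the same step (7.33 ± 3.40 to 35.3 ± 6.05 CPM, log2 fold change 2.27, SE 0.46, adjusted p = 0.0133). With AAV8-p21 against AAV8-null the medians of this list were 0.56 at 8 dpc and 0.46 at 16 dpc, with 15 and 13 of 18 above 0 and none called. Of 16 tested matrix proteases and inhibitors, Adam10 (22.2 ± 5.77 to 50.5 ± 21.3 CPM from NP to 16 dpc, adjusted p = 0.0274) rose and Mmp19 (85.9 ± 10.6 to 40.2 ± 10.7 CPM from 8 to 16 dpc, adjusted p = 0.0340) fell, both with AAV8-null. Of all genes, 3.71% rose in the first of these comparisons and 3.71% fell in the second. Adam10 was not called without NP mouse 1 (adjusted p = 0.0799) or with scaling by the library total (log2 fold change 0.53, adjusted p = 0.182).

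Among the ligands, receptors and mediators of PDGF and TGF-beta, Pdgfrb itself was called in no comparison. Pdgfa, a ligand of the related receptor Pdgfra, rose from 2.005 ± 0.740 CPM in NP to 10.8 ± 0.980 CPM at 16 dpc with AAV8-null (log2 fold change 2.42, SE 0.30, adjusted p = 0.000365). It also rose from 8 to 16 dpc with either virus, by 2.81 and 2.37 on the log2 scale. Pdgfra had 2.97 ± 1.19 CPM at 8 dpc and 9.24 ± 3.05 CPM at 16 dpc with AAV8-null (1.63, SE 0.45, adjusted p = 0.0447, and 0.0522 without the AAV8-p21 mouse 3 of 8 dpc). Pdgfc, another PDGF ligand, fell from 8 to 16 dpc with AAV8-p21 (-1.72, SE 0.43, adjusted p = 0.0448), but not without mouse c (adjusted p = 0.132). Tgfbr2, a receptor of TGF-beta, rose from 14.5 ± 4.23 to 31.9 ± 7.29 CPM from NP to 16 dpc (1.136, SE 0.24, adjusted p = 0.0127), and Smad7, an inhibitor of that pathway, fell from 8.39 ± 1.66 to 3.38 ± 0.620 CPM (-1.31, SE 0.26, adjusted p = 0.00860). In all 3 of 24 tested genes of this list rose and 1 fell from NP to 16 dpc, and 5 rose and none fell from 8 to 16 dpc with AAV8-null. Over all genes 3.71% rose and 2.82% fell in the first comparison, and 3.16% rose and 3.71% fell in the second. The remaining riser from NP was Skil, a repressor of SMAD signalling, which was not called without NP mouse 1 (adjusted p = 0.118). Under scaling by the library total Tgfbr2 (adjusted p = 0.165) and Skil (0.0759) were not called from NP to 16 dpc, and Pdgfra (0.109), Tgfbr2 (0.375) and Lrrc32 (0.370) were not called from 8 to 16 dpc with AAV8-null.

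The receptor side of the reelin pathway was nearly empty except for Vldlr. Vldlr, a lipoprotein receptor that also binds reelin, fell from 23.9, 23.0 and 23.1 CPM in NP to 2.14, 3.67 and 3.74 CPM at 16 dpc with AAV8-null (log2 fold change -2.87, SE 0.29, adjusted p = 6.68e-05). At 8 dpc it had 20.9, 19.1 and 26.1 CPM. With AAV8-p21 it had 36.9, 20.5 and 18.1 CPM at 8 dpc and 3.58, 3.42 and 4.73 CPM at 16 dpc (-2.69, SE 0.29, adjusted p = 0.000151). Lrp8 and Dab1, the other reelin receptor and the adaptor behind it, had at most 4 and 5 counts in a library and were not tested. Of the genes for retinoid storage and handling, 23 were tested, and 2 rose and 2 fell from NP to 16 dpc, where 3.71% of all genes rose and 2.82% fell. The lipid droplet protein Plin2 (507 ± 70.7 to 2976 ± 1677 CPM, adjusted p = 0.0113) and the dehydrogenase Aldh1a7 (96.6 ± 56.1 to 1262 ± 398 CPM, adjusted p = 0.000424) rose. Lrat and Ttr, the plasma carrier transthyretin (4597 ± 1900 to 1728 ± 524 CPM, adjusted p = 0.0214), fell, and Ttr was not called without NP mouse 1 (adjusted p = 0.0741). From 8 to 16 dpc with AAV8-null 3 rose and 0 fell, where 3.16% of all genes rose and 3.71% fell. The risers were Aldh1a7 (log2 fold change 2.59, SE 0.46, adjusted p = 0.00439), Plin2 (2.22, SE 0.53, adjusted p = 0.0235) and the low-level dehydrogenase Aldh1a3 (0.245 ± 0.148 to 1.58 ± 0.985 CPM, adjusted p = 0.0289, and 0.0538 without the AAV8-null mouse 3 of 8 dpc). With AAV8-p21 Aldh1a7 was the 1 called between these stages (2.43, SE 0.45, adjusted p = 0.00850), where 3.32% of all genes were called. Plin2, Aldh1a7 and Ttr are also expressed by hepatocytes, and the part of each cell type in their values was not tested.

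**Figure D4:**
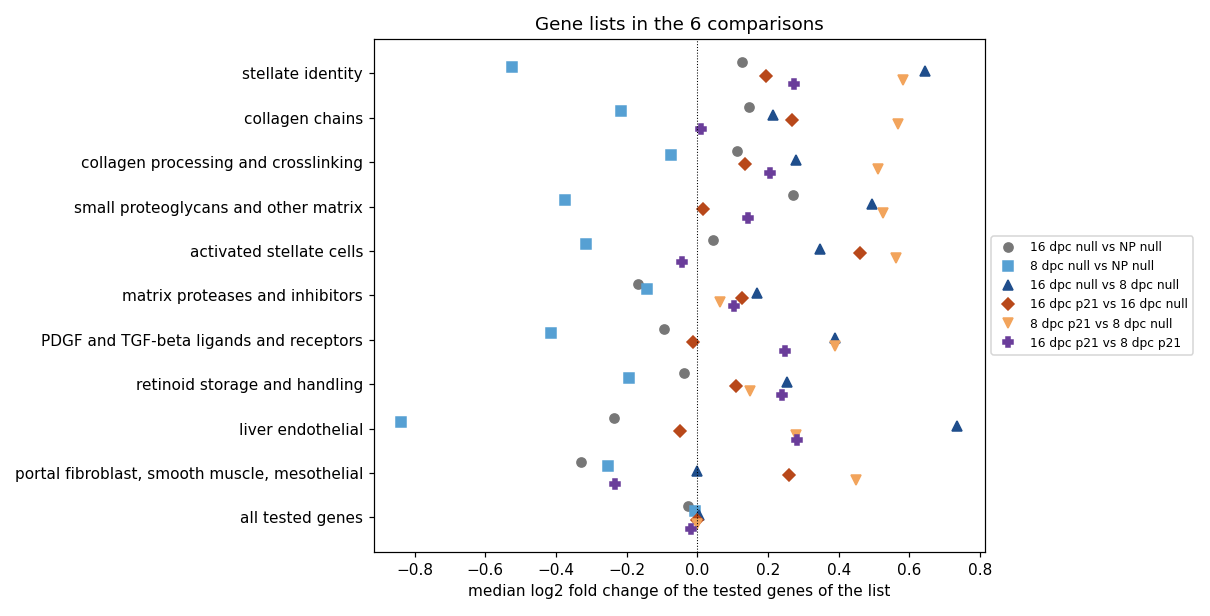
Median log2 fold change of the tested genes of each list in the 6 comparisons, with all tested genes in the last row. Most lists lie below 0 from NP to 8 dpc and above 0 both from 8 to 16 dpc with AAV8-null and between the viruses at 8 dpc, which are 3 comparisons that share the AAV8-null livers of 8 dpc.

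The fibrillar collagen genes varied together from liver to liver within groups. Taken as deviations of log2 CPM from the group mean over 15 livers, Col1a1 and Col3a1 had a Pearson r of 0.90, Col1a1 and Col1a2 of 0.79 and Col1a2 and Col3a1 of 0.79. Des had 0.77 with Col1a1, and Pdgfrb had 0.71 with Des and 0.51 with Col1a1. Lrat had 0.10 with Col1a1 and 0.18 with Col3a1. Dcn and Reln formed another pair, with 0.64 between them and -0.29 and -0.47 with Col1a1. These values are descriptions over libraries of unequal depth, and low counts of Col1a1, from 8 to 100 a library, add counting noise. Per kb, the ratio of Col1a1 to Col1a2 ranged from 0.248 to 1.40 with a median of 0.649, and that of Col3a1 to Col1a1 from 1.79 to 4.92 with a median of 3.79. Together the 3 chains summed to 6.19 CPM in mouse 3 at 8 dpc with AAV8-null, the lowest liver, and to 49.7 CPM in mouse a at 16 dpc with AAV8-p21, the highest.

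A property of the libraries moved with this split. The longest 25% of tested genes by exon length were set against the shortest 25%, as the median of their deviations from the group mean, and this difference ranged from -0.60 in NP mouse 1 to 0.31 in NP mouse 3 on the log2 scale. Over 15 livers it had an r of -0.85 with the deviations of Col1a1, -0.72 with Col3a1, -0.60 with Col1a2 and -0.77 with Des, and of 0.81 with Reln and 0.53 with Dcn. Lrat had 0.16 and Pdgfrb -0.47. Reln has 23.7 kb of exon, the longest among the members, whereas Col1a2 with 12.4 kb and Col3a1 with 9.82 kb are longer than Dcn with 5.84 kb. Its part in the variation of these genes was not tested.

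**Figure D5:**
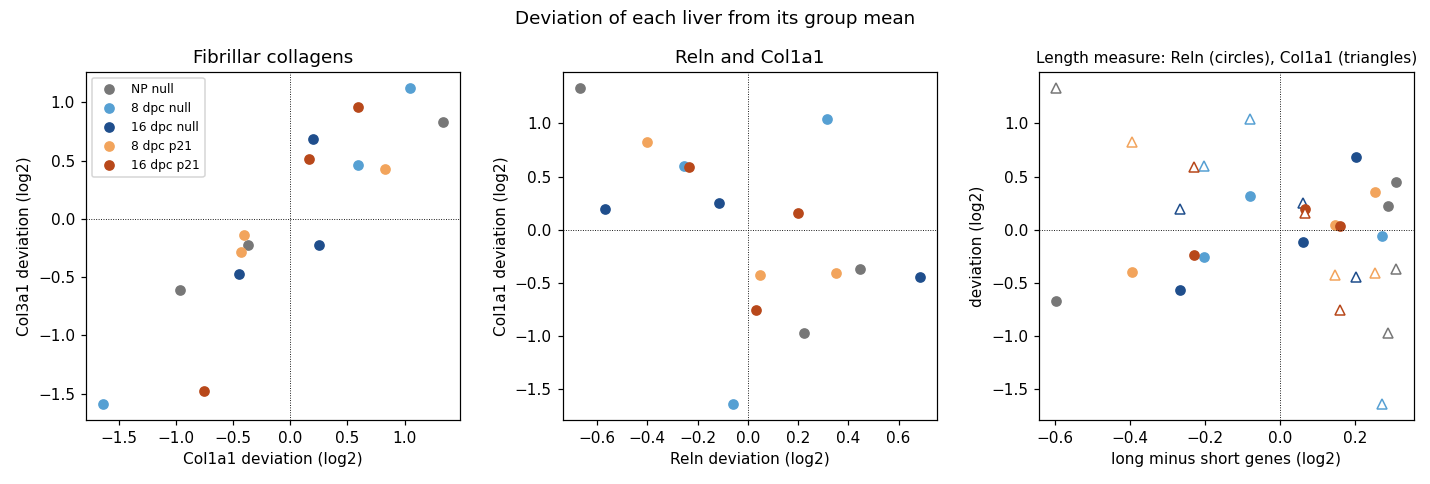
Deviations of log2 CPM from the group mean in each of 15 livers, coloured by group. Col1a1 and Col3a1 (left) lie along a rising line with r = 0.90, Col1a1 and Reln (middle) do not, and the difference between long and short genes (right) rises with Reln (circles, r = 0.81) and falls with Col1a1 (triangles, r = -0.85).

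The genes most like Col1a1 in log2 CPM over the 15 livers, leaving members aside, were Col6a3 with a Pearson r of 0.91 and a Spearman rho of 0.86, Pcolce (0.90 and 0.88), Cryab (0.89 and 0.86), Wfdc1 (0.89 and 0.86) and Acta2 (0.89 and 0.85). Col6a3 is a chain of type VI collagen and Pcolce enhances the cleavage of procollagen. Without the 2 livers farthest from the median of Col1a1, the AAV8-null mouse 3 and the AAV8-p21 mouse 3 at 8 dpc, the r values were 0.80, 0.85, 0.84, 0.74 and 0.72. Acta2 rests on 3 to 34 counts a library. The genes most like Lrat were Npr3, the clearance receptor of natriuretic peptides (r 0.87, rho 0.83), Dcdc2a (0.82 and 0.87), Elf4 (0.82 and 0.80), Hic1 (0.81 and 0.79) and 9930111J21Rik2 (0.79 and 0.78). Without NP mouse 1 and AAV8-p21 mouse 1 at 8 dpc the r values were 0.81, 0.76, 0.78, 0.71 and 0.75. These values include the differences between groups. Within groups, r was 0.84 to 0.91 for the 5 genes like Col1a1 and 0.63 to 0.79 for the 5 like Lrat. The genes were chosen by r over the same livers, so high values within groups are partly given by that choice.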

How the data were processed

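The authors made TruSeq Stranded mRNA libraries of whole liver RNA, sequenced them single-end, and used cutadapt 1.14 for trimming, HISAT2 2.1.0 for alignment to mm10 and HTSeq 0.12.4 to count uniquely mapped reads over protein-coding genes of GENCODE vM25. The deposited values are raw counts per gene and library. The strand setting of the counting is not given in the sources used here. Columns were matched to samples by title, and 0 columns were left unmatched. The 3 columns of AAV8-p21 at 16 dpc were matched to the group only.

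Tests were quasi-likelihood F tests (edgeR 4.0.16, R 4.3.3; TMM scaling, filterByExpr with a minimum count of 10, 1 model of 5 groups with 10 residual degrees of freedom, Benjamini-Hochberg adjustment over 12172 genes, threshold 0.05). The SE is the log2 fold change divided by the root of F, and intervals are 95% intervals. The model was tested on simulated data. DESeq2 1.42.0 and limma 3.58.1 were alternatives. Exon lengths and positions are from GENCODE M21 on GRCm38, with 21588 of 21702 genes matched, and promoters from RefSeq on GRCm38.p6. Members and lists were chosen with earlier results of these data known. All 9 members are described. Named list genes are at most 4 per list and comparison, by adjusted p, of which 1 is not reported here, and the genes most like Col1a1 and Lrat are the 5 with the highest r. The p-values rest on the spread between mice within all 5 groups of 3, pooled in 1 model, and not on the compared groups alone. Depth limits Timp1 and Col1a1. Libraries of 1 group differed by more than sampling noise, so none was counted as a duplicate.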

Additional observations from a re-analysis of the deposited data

How the results depend on the processing

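Of the comparisons, 16 dpc with NP kept Lrat as its 1 called member under all 13 alternatives (adjusted p 0.000164 to 0.0483). Leaving out each library in turn gave 0 to 1 called members there and 0 to 2 from 8 to 16 dpc with AAV8-null. In that comparison Dcn was called under 10 of 13 alternatives (adjusted p 0.000318 to 0.247), and the number of called members was 0 with edgeR on the compared groups alone, 0 with scaling by the library total without Alb (chosen after seeing the data), and 2 with DESeq2, whether fitted to 15 libraries or just to the groups at hand. With scaling by the library total it stayed at 1, but as Lrat in place of Dcn, where 6508 genes in all were called against 836. From NP to 8 dpc limma voom gave 2, and from 8 to 16 dpc with AAV8-p21 limma voom, the library total and the total without Alb each gave 1, which was Lrat. The library total called 4317 genes in all there and the total without Alb 2099, against 404. The cause of these changes was not tested. Under scaling by the library total the median of all genes was -0.70 from NP or 8 dpc to 16 dpc with AAV8-null and -0.59 from 8 to 16 dpc with AAV8-p21. With AAV8-null the log2 fold change was reversed under it for Dcn (-0.22) and Col1a2 (-0.23) from NP to 16 dpc and for Des (-0.17) and Col1a2 (-0.0517) from 8 to 16 dpc, none of them called in either fit. With smaller changes included, members above 0 went from 5 to 0 of 8 from NP to 16 dpc (median 0.06 to -0.62) and from 7 to 2 of 8 from 8 to 16 dpc (0.39 to -0.31). Scaling by the library total calls 6150 genes from NP to 16 dpc against 794, with 9.45% of genes above 0 against 47.5%. DESeq2 on all 15 libraries calls 1198 there, 134 against 9 for the viruses at 16 dpc and 28 against 3 at 8 dpc.

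With the replicate block, possible in 12 libraries, Lrat (adjusted p = 0.0483) and Dcn (0.0322) were still called, 1 member in each comparison as without the block in those libraries, and all called genes numbered 657 against 739 and 655 against 754. The 18 pairs of same-numbered livers had r from -0.49 to 0.43, over 0.1 in 7 and not in 11, and 4 of 12 libraries correlated best with their own number, so the numbers were not taken as pairs. Of the 32 small fold changes with an unadjusted p of 0.2 or more, 72 of 633 recomputed values changed sign and 1 was called. List counts without single livers were also chosen after seeing the data. Depth limits Timp1 (33 counts in all) and Col1a1 (8 to 100 counts a library).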
